A study of Mus musculus with 13 samples.

Results

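The cholesterol genes described here are 30 mouse genes named for their role: 8 enzymes of the mevalonate arm, 10 enzymes of the sterol arm, 5 regulators of sterol-dependent transcription, 2 genes of uptake and intracellular transport, 3 genes of export and 2 enzymes that hydroxylate or esterify cholesterol. They were listed by name and role, with earlier results of these data known, out of 49315 genes counted, and all 30 were among the 19360 genes that reached 10 counts in 3 or more libraries. RNA-Seq of whole midbrain was performed on 13 mice aged 8 to 12 weeks, 1 library from each. All carried floxed Ripk3 alleles (Ripk3fl/fl), either without (Aldh1l1Cre-) or with (Aldh1l1Cre+) a tamoxifen-inducible Cre driven by the astrocyte gene Aldh1l1, and all received tamoxifen at 60 mg/kg on 5 days. Mice then received MPTP, a dopaminergic neurotoxin, at 20 mg/kg daily for 5 days, or saline, and tissue was taken 3 days after the final dose. The saline groups held 3 Cre- and 3 Cre+ mice, and the MPTP groups held 3 Cre- and 4 Cre+ mice. Cre acted in astrocytes, while the RNA came from every cell of the midbrain, so fewer cells of a type and less RNA per cell cannot be told apart. The design asks whether MPTP changed a transcript, and whether that change differed when Ripk3 could be deleted from astrocytes.

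Brain makes nearly all of its own cholesterol, since circulating lipoproteins do not cross the blood-brain barrier. Acetyl-CoA is built up through mevalonate to squalene, which the sterol arm cyclizes and trims to cholesterol, and oligodendrocytes that make myelin and astrocytes that supply neurons are major producers. When membrane sterols run low, SCAP carries the SREBP transcription factors out of the endoplasmic reticulum to be cleaved, and INSIG proteins hold them back when sterols are plentiful. Liver X receptors, which sense oxysterols, raise export through ABCA1, ABCG1 and APOE, and neurons turn surplus cholesterol into 24S-hydroxycholesterol through CYP46A1.

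SREBP-2 acts on promoters together with the factor NF-Y, which binds CCAAT. Promoter sequences from RefSeq (GRCm38.p6; 250 bases before to 50 after each annotated start) were on hand for 25 of the 30 genes. CCAAT, read on both strands, was found in 14 of the 15 synthesis enzymes with an entry, in 6 of the 10 other genes, and in 42.1% of the 13187 tested genes with an entry. A gene was counted if any of its entries held the motif. Dhcr7 had 3 entries, and CCAAT was only in that at chr7:143829964-143830263, inside the gene, which starts at 143823145. The sterol response element spelling TCACNCCAC was found in Hmgcs1 alone among the 25, against 1.39% of those tested genes. These are matches of letters and not measured binding. The 180 bases before the start are given for 4 synthesis enzymes and for the exporter Abca1, with CCAAT or its complement ATTGG and the TCACNCCAC match in capitals. None of these windows overlapped an exon of the counted gene models, and the Abca1 window had no CCAAT. For 3 of the 5, the 30 bases after the start lay in an annotated transcript of the gene. The counted Hmgcs1 model starts at 119690462 and that of Sc5d at 42264256, so their windows do not adjoin the counted genes. Their positions on GRCm38.p6 are Hmgcs1 at chr13:119690171-119690350 on the + strand, Mvk at chr5:114444089-114444268 on the + strand, Mvd at chr8:122443423-122443602 on the − strand, Sc5d at chr9:42264301-42264480 on the − strand, Abca1 at chr4:53159896-53160075 on the − strand.
Hmgcs1: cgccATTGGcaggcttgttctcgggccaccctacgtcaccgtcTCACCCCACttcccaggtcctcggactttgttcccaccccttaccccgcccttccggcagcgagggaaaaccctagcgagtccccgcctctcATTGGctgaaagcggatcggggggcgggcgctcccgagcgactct
Mvk: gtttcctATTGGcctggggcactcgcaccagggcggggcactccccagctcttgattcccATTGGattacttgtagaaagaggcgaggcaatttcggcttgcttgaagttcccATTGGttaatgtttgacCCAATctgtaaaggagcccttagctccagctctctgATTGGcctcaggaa
Mvd: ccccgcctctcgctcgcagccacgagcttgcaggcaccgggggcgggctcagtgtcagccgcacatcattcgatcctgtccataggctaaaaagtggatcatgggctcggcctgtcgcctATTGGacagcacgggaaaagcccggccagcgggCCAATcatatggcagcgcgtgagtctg
Sc5d: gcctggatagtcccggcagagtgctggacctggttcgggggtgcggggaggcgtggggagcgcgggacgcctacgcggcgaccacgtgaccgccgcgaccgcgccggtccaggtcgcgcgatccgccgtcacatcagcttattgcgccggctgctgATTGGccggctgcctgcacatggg
Abca1: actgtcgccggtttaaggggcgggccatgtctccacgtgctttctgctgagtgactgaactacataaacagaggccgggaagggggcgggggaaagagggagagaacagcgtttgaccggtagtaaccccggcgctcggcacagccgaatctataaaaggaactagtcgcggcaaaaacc

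Before the comparisons, 1 library needs description. Total counts were 11489150 in Cre- MPTP replicate 1 and 17713289 to 29397278 in the other 12 libraries, and a count was seen for 21101 genes against 25432 to 27186. Of all genes tested, 33.8% had their highest level of the 13 libraries in Cre- MPTP replicate 1 and 42.1% their lowest. Among the cholesterol genes, 10 had their highest level there and 16 their lowest. Its log2 difference from the mean of Cre- MPTP replicates 2 and 3 was related to the GC content of a gene's longest transcript (Spearman's rho of 0.56 across 19294 genes that share these libraries, and 0.69 across the 30 cholesterol genes), against -0.29 to 0.35 for the 10 libraries of the other groups. Apoe, with the highest GC of the 30 at 59.5%, had a difference of 2.18, and Idi1, with the lowest at 41.9%, had -1.19. The relation was loose, since Nsdhl, at 45.8% GC, was farthest below, at -2.13. Dhcr7, at 52.8% GC, was at -1.30. The source of these differences was not tested, and values without it are given where it moved a call or a fold change. Cre+ MPTP replicate 4 stood apart in muscle genes, which summed to 6334 CPM (counts scaled to a common library total) against 11.7 to 147 in the other libraries. Pituitary markers summed to 605 and 445 CPM in Cre+ Saline replicates 1 and 3, against 5.78 to 81.9 in the other libraries. What the muscle and pituitary transcripts themselves contributed was not tested, but each of these 3 libraries was left out in turn. The median log2 fold change of the 18 synthesis enzymes after MPTP in Cre+ mice was -0.29 with all libraries. Dropping the library rich in muscle genes gave -0.23. Dropping the first of the 2 libraries with pituitary markers gave -0.35, and dropping the other gave -0.28. All 18 enzymes were lower each time. Ripk3 itself read 0.159 to 0.402 CPM in Cre- Saline, 0.228 to 0.394 in Cre+ Saline mice. After MPTP it read 0.650 to 1.32 CPM in Cre- and 0.224 to 0.702 CPM in Cre+ mice. These values rest on 4 to 40 counts per library, too few in whole midbrain to check its deletion in astrocytes.

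**Figure D1:**
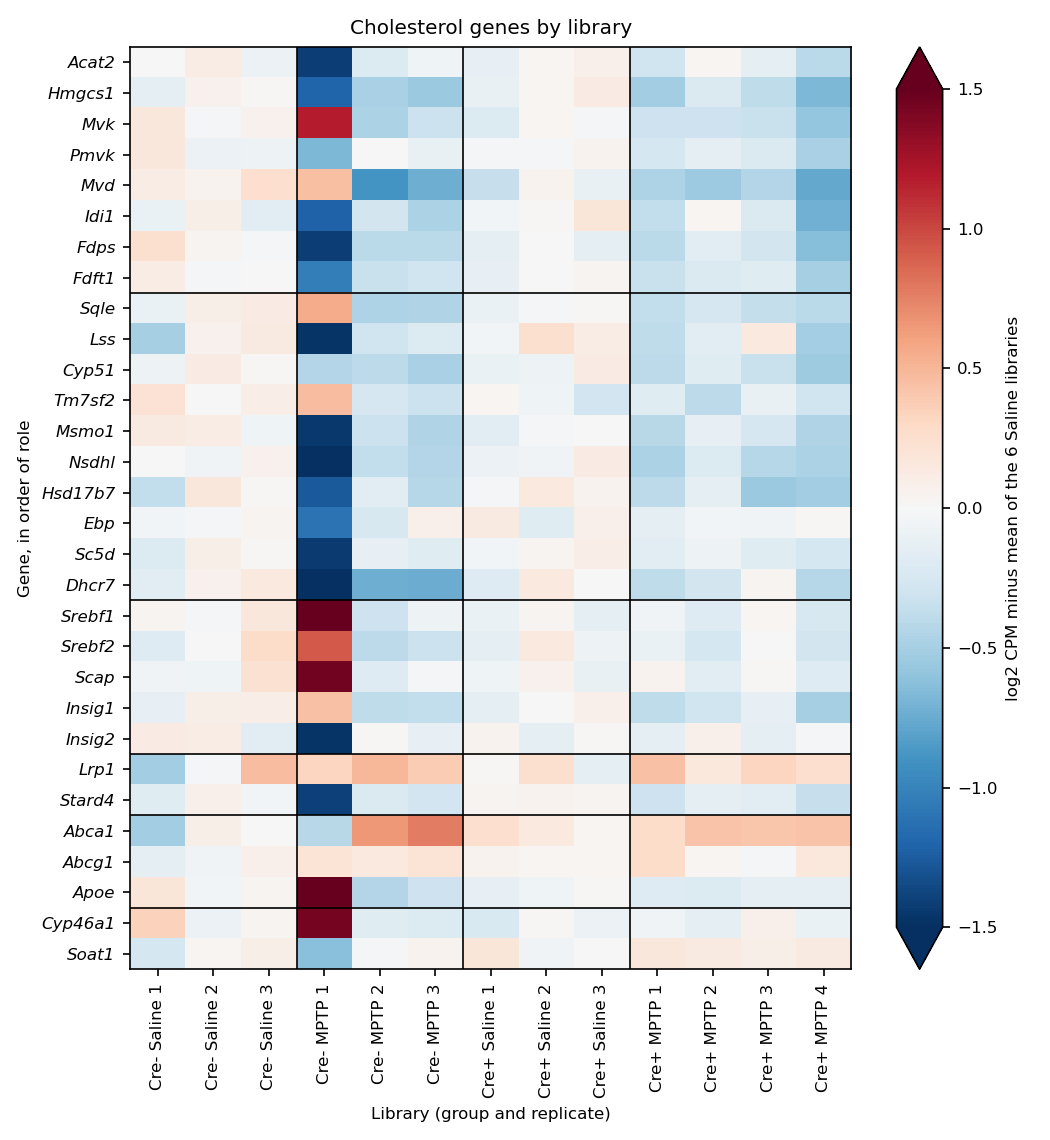
Each cell is the log2 CPM of 1 gene (rows, in order of role) in 1 library (columns, by group), minus the gene's mean over the 6 Saline libraries; blue is lower and red higher, with the scale ending at 1.5 either way. The synthesis enzymes in the upper 18 rows are mostly blue in the MPTP libraries, and Cre- MPTP replicate 1 has the deepest colours in both directions.

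The genes differed widely in level. In Cre- Saline mice and per kilobase of exon, Apoe, the main apolipoprotein of the brain, stood at 1265 CPM per kilobase, Hmgcs1 at 104, Insig1 at 60.2, Srebf2 at 47.6 and Cyp46a1 at 47.3. The lowest were Lss at 5.56, Soat1 at 4.51 and Abca1 at 4.22 CPM per kilobase. The smallest count of any of the 30 was 61, for Nsdhl in Cre- MPTP replicate 1, and Apoe reached 106366. In the gene models, 7 of the 30 shared exon bases with another gene, 4 of them over more than 10% of their length (Fdps, Fdft1, Tm7sf2 and Scap), and reads there may belong to either gene.

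Synthesis enzymes were lower after MPTP in both genotypes. Summed over the 18 enzymes of both arms, the level was 1348 ± 54.5 CPM in Cre- Saline (SD, n = 3), 1333 ± 79.3 in Cre+ Saline (SD, n = 3), 952 ± 132 in Cre- MPTP (SD, n = 3) and 1066 ± 105 in Cre+ MPTP (SD, n = 4). Cre- MPTP replicate 1 was at 800 CPM, against 1039 and 1016 CPM in replicates 2 and 3. In that library 13 of the 18 enzymes had their lowest level of the 13 libraries. The highest of the 7 MPTP libraries, at 1180 CPM, lay below the lowest of the 6 Saline libraries, at 1244. This sum is weighted to the abundant enzymes, above all Hmgcs1, and was looked at after the values were known.

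In Cre- mice, 17 of 18 synthesis enzymes had a lower mean after MPTP, with a median log2 fold change of -0.46 against 0.03 over all genes tested, where 47.6% were lower. For 8 of the 18 every MPTP library was below every Saline library, as for 8.02% of all genes. Only 1 passed an adjusted p of 0.05 in edgeR's quasi-likelihood test, where 3.18% of all genes passed and 0.956% passed as lower, and 8 were lower at an unadjusted p under 0.05, against 5.72%.

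The enzyme that passed was Dhcr7 (ENSMUSG00000058454, chr7:143823145-143848410), the reductase that turns 7-dehydrocholesterol into cholesterol. It stood at 41.2, 48.1 and 50.9 CPM in the Cre- Saline libraries and at 14.2, 27.5 and 27.4 CPM in the Cre- MPTP libraries. The groups did not overlap, and the log2 fold change came to -1.01 (SE 0.23, adjusted p = 0.0314 by edgeR). The Cre+ libraries went from 39.9, 50.6 and 45.6 CPM with saline to 35.2, 37.9, 47.2 and 34.1 CPM with MPTP, so the groups overlapped, and the log2 fold change was -0.23 (SE 0.21). Leaving out any 1 Cre- Saline library ended the call in Cre- mice, as did leaving out any Cre+ library other than Cre+ MPTP replicate 3, since all groups share an estimate of the spread. Across the 21 alternatives tried, 11 kept it and the adjusted p ran from 0.000222 to 0.399.

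Hmgcs1 (ENSMUSG00000093930, chr13:119690462-119708086), the cytosolic HMG-CoA synthase that feeds the mevalonate arm, was measured with the most counts of the synthesis enzymes. It stood at 309, 353 and 343 CPM in Cre- Saline and at 147, 241 and 230 CPM in Cre- MPTP. Among Cre+ mice it stood at 313, 346 and 369 CPM with saline and at 235, 292, 260 and 212 CPM with MPTP. In both genotypes all MPTP libraries lay below all Saline libraries. For Hmgcs1 the log2 fold change came to -0.70 (SE 0.19, adjusted p = 0.0693 by edgeR) in Cre- mice and -0.46 (SE 0.17, unadjusted p = 0.02 by edgeR) in Cre+ mice.

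Farther along the mevalonate arm the same direction was seen in Cre- mice for Fdps, which makes farnesyl diphosphate, with a log2 fold change of -0.75 (SE 0.23), and for the squalene synthase Fdft1, with -0.55 (SE 0.18). In the sterol arm, the lanosterol demethylase Cyp51 had a log2 fold change of -0.46 (SE 0.12) and the methylsterol oxidase Msmo1 of -0.72 (SE 0.23). Their adjusted p-values by edgeR lay between 0.0771 and 0.157, so none of these 4 passed. With Cre- MPTP replicate 1 left out, Fdps was at -0.49 (SE 0.13), Fdft1 at -0.34 (SE 0.10), Cyp51 at -0.45 (SE 0.10) and Msmo1 at -0.44 (SE 0.11). Cyp51 (chr5:4081145-4104746) was at 105, 121 and 112 CPM with saline and 81.6, 84.6 and 79.3 CPM with MPTP, with Cre- MPTP replicate 1 between the other 2.

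Mvk, the mevalonate kinase, was the 1 enzyme with a higher mean, and that mean rested on a single library. It read 36.4, 31.7 and 34 CPM in Cre- Saline and 73.6, 23.3 and 25.8 CPM in Cre- MPTP, where the 73.6 is replicate 1. Sqle, the squalene epoxidase that opens the sterol arm, was split the same way, at 89.4, 101 and 104 CPM with saline against 141, 69.8 and 70.1 CPM with MPTP. Replicates 2 and 3 were below every Saline library for both genes.

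Without Cre- MPTP replicate 1, all 18 synthesis enzymes were lower in Cre- mice, with a median log2 fold change of -0.40 against -0.01 over all genes, of which 51.1% were lower, and 10 of them fell at an adjusted p under 0.05 by edgeR, where 4.25% of all genes did. These were Hmgcs1, Mvk, Mvd, Fdps, Fdft1, Sqle, Cyp51, Msmo1, Nsdhl and Dhcr7, named here after their values were seen. The steepest was Mvd, the mevalonate diphosphate decarboxylase, at -0.95 (SE 0.14, adjusted p = 0.000618 by edgeR), which with all libraries was at -0.41 (SE 0.29). Dhcr7 was at -0.76 (SE 0.14, adjusted p = 0.00464 by edgeR), Hmgcs1 at -0.51 (SE 0.12, adjusted p = 0.0188 by edgeR) and Sqle at -0.49 (SE 0.08, adjusted p = 0.00226 by edgeR). For 12 of the 18 the MPTP libraries lay below the Saline libraries, as for 20.4% of all genes in this comparison of 2 libraries against 3. Acat2, Pmvk, Lss, Ebp, Sc5d and Hsd17b7 overlapped between the groups.

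In Cre+ mice, all 18 synthesis enzymes had a lower mean after MPTP, where 49.1% of all genes did, with a median log2 fold change of -0.29. The count stayed at 18 under every alternative tried. The library rich in muscle genes, Cre+ MPTP replicate 4, had the lowest enzyme sum of its group. It was at 941 CPM, against 1025 to 1180 CPM in the rest of the group, and the median was -0.23 when it was dropped. For 11 of the 18 the 4 MPTP libraries lay below the 3 Saline libraries, against 4.61% of all genes. None passed an adjusted p of 0.05 by edgeR, and no gene of the whole table did (0%). At an unadjusted p under 0.05, Hmgcs1 and Cyp51 were lower (2 of 18), against 0.77% of all genes. Cyp51 was at 103, 105 and 120 CPM with saline and at 84.2, 97.4, 87.7 and 76.7 CPM with MPTP. The next by p were Hsd17b7, the 3-ketosteroid reductase of the pathway, at -0.45 (SE 0.22), Pmvk, the phosphomevalonate kinase, at -0.27 (SE 0.16), Fdft1 at -0.28 (SE 0.16) and Idi1, the isopentenyl diphosphate isomerase, at -0.35 (SE 0.22).

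Of the remaining enzymes, Nsdhl, which removes a carboxyl group from the sterol nucleus, had log2 fold changes of -0.78 (SE 0.33) in Cre- and -0.39 (SE 0.30) in Cre+ mice, with no overlap in either genotype, and -0.41 (SE 0.11) in Cre- mice without Cre- MPTP replicate 1. Tm7sf2, a sterol reductase, was at -0.11 (SE 0.20) and -0.14 (SE 0.18), and overlapped in both, and without that library it was at -0.40 (SE 0.12) in Cre- mice with no overlap. Lss, which cyclizes squalene epoxide to lanosterol, was at -0.47 (SE 0.29) and -0.31 (SE 0.27) and overlapped in both, and without that library it was at -0.17 (SE 0.19) in Cre- mice. Acat2, the acetoacetyl-CoA thiolase at the head of the pathway, was at -0.45 (SE 0.26) and -0.19 (SE 0.24). Ebp, the sterol isomerase, was at -0.32 (SE 0.23) and -0.07 (SE 0.21), and the desaturase Sc5d at -0.44 (SE 0.26) and -0.20 (SE 0.24). Without Cre- MPTP replicate 1 the values in Cre- mice for Acat2, Pmvk, Ebp and Sc5d lay between -0.14 and -0.06, so these 4 were the enzymes nearest to 0.

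Leaving out Cre- MPTP replicate 1 changed the precision in Cre+ mice and hardly moved the fold changes, because the spread is estimated over all groups. The SE of Hmgcs1 went from 0.17 to 0.10 and that of Nsdhl from 0.30 to 0.09. At an unadjusted p under 0.05, 13 of the 18 were then lower, against 3.33% of all genes, and the smallest adjusted p was 0.0903, for Hmgcs1 by edgeR, so none passed, against 0.166% of all genes. DESeq2 called none of the 30 in Cre+ mice, against 0.429% of all genes, and a limma voom fit with sample quality weights called 5, Hmgcs1, Sqle, Cyp51, Nsdhl and Hsd17b7, all lower, against 1.52% of all genes in either direction.

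**Figure D2:**
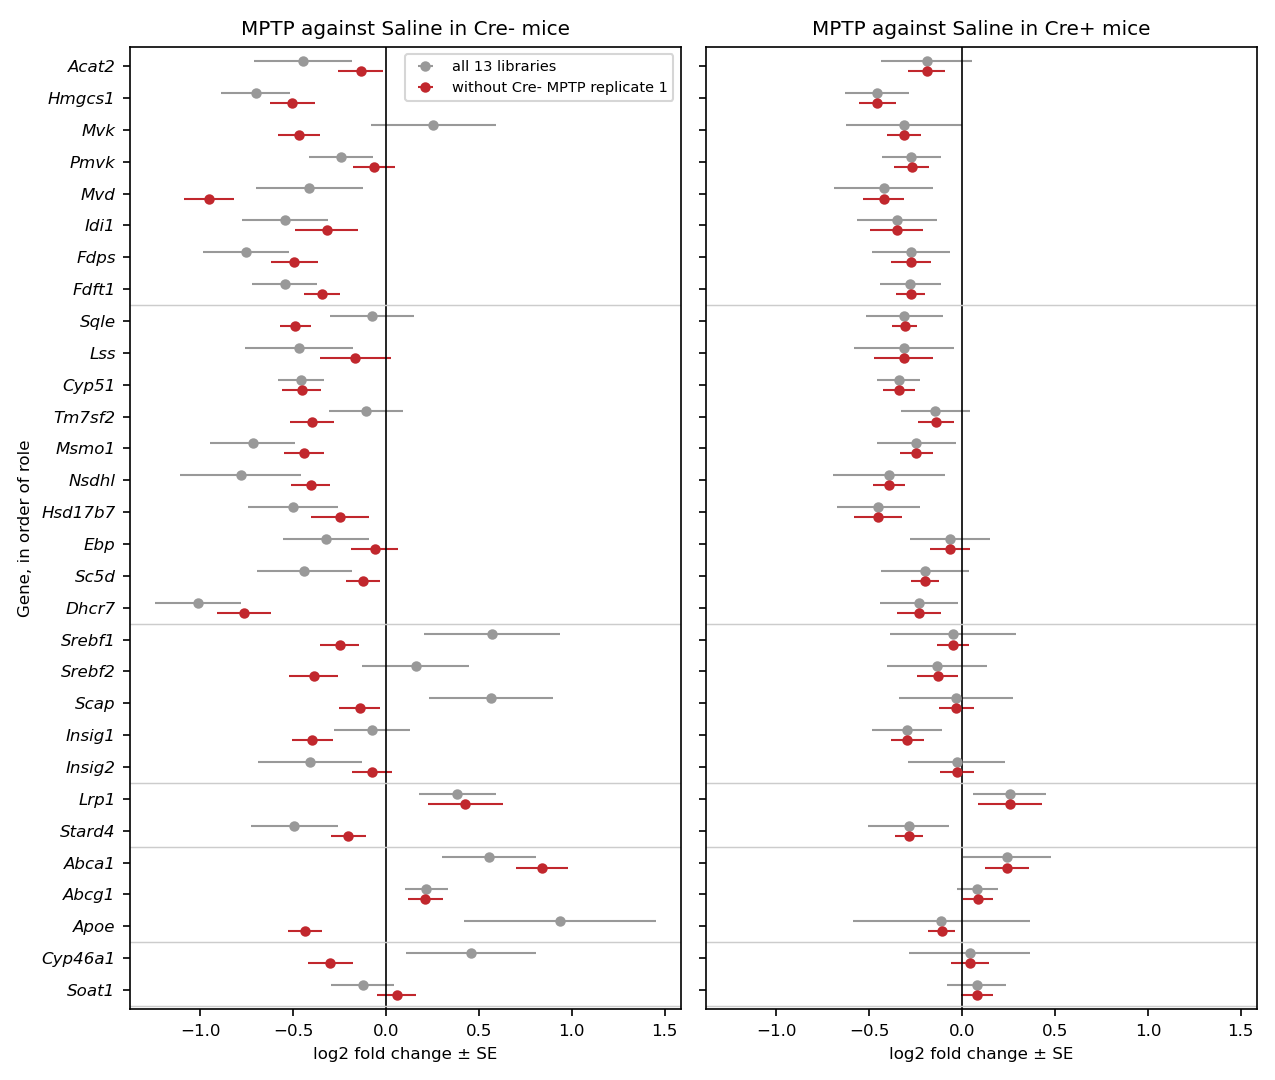
Points are log2 fold changes of MPTP against Saline with their SE (horizontal bars) for the 30 genes, in Cre- mice (left) and Cre+ mice (right), with all 13 libraries (grey) and without Cre- MPTP replicate 1 (red). In red, all 18 synthesis enzymes lie left of 0 in both panels, and Abca1 lies right of 0.

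Averaged over both genotypes, a contrast added after the values were seen, all 18 synthesis enzymes were lower (45.3% of all genes were) and 2 fell at an adjusted p under 0.05 by edgeR, where 2.84% of all genes passed and 0.811% passed as lower. These were Hmgcs1, with a log2 fold change of -0.58 (SE 0.13, adjusted p = 0.0276 by edgeR), and Cyp51, with -0.40 (SE 0.08, adjusted p = 0.0231 by edgeR). The next by p were Dhcr7 at -0.62 (SE 0.16), Fdft1 at -0.41 (SE 0.12), Fdps at -0.52 (SE 0.16) and Msmo1 at -0.48 (SE 0.16), which did not pass. For 5 enzymes all 7 MPTP libraries lay below all 6 Saline libraries, as for 0.48% of all genes: Hmgcs1, Fdps, Fdft1, Cyp51 and Nsdhl. Each of the 2 calls was lost when certain single libraries were left out, and both were lost without Cre+ MPTP replicates 1, 3 or 4, Cre- Saline replicates 2 or 3, or Cre+ Saline replicates 2 or 3. Without Cre- MPTP replicate 1, 12 enzymes fell, against 4.14% of all genes.

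Oligodendrocyte markers were also mostly lower after MPTP. Of 10 such markers, 9 were lower in Cre- mice after MPTP with a median log2 fold change of -0.73, and 4 fell at an adjusted p under 0.05 by edgeR (Mog, Cnp, Ugt8a and Opalin, all genes of myelin or of its lipids), against 0.956% of all genes. In Cre+ mice 10 of 10 were lower, with a median of -0.37, and none passed. Without Cre- MPTP replicate 1, 10 of 10 were lower in Cre- mice and 6 fell, against 4.25% of all genes. Their summed level was 13159 to 18247 CPM in the 6 Saline libraries, 9726 to 12478 in Cre- MPTP and 11723 to 15234 in Cre+ MPTP. The part of oligodendrocytes in the lower synthesis enzymes was not tested. Astrocyte markers summed to 3512 to 4073 CPM in the Saline libraries, 2269 to 4287 in Cre- MPTP and 3775 to 4074 in Cre+ MPTP. Of 8 astrocyte markers in Cre- mice, 4 were higher and 4 lower (median -0.05). At an adjusted p under 0.05 by edgeR 1 rose, against 2.23% of all genes, and none fell. Neuron markers summed to 4575 to 5310 CPM in the Saline libraries, 3084 to 4955 in Cre- MPTP and 4303 to 4972 in Cre+ MPTP. In Cre- mice 7 of 8 neuron markers were lower (median -0.24) and none passed. Of 6 dopaminergic neuron markers there, 4 were higher and 2 lower (median 0.22), and none passed. Of 6 endothelial markers, 3 were lower and 2 fell at an adjusted p under 0.05 by edgeR. Of 7 microglia markers, 4 were lower and 1 fell, against 0.956% of all genes. The part of these cell types was not tested either.

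**Figure D3:**
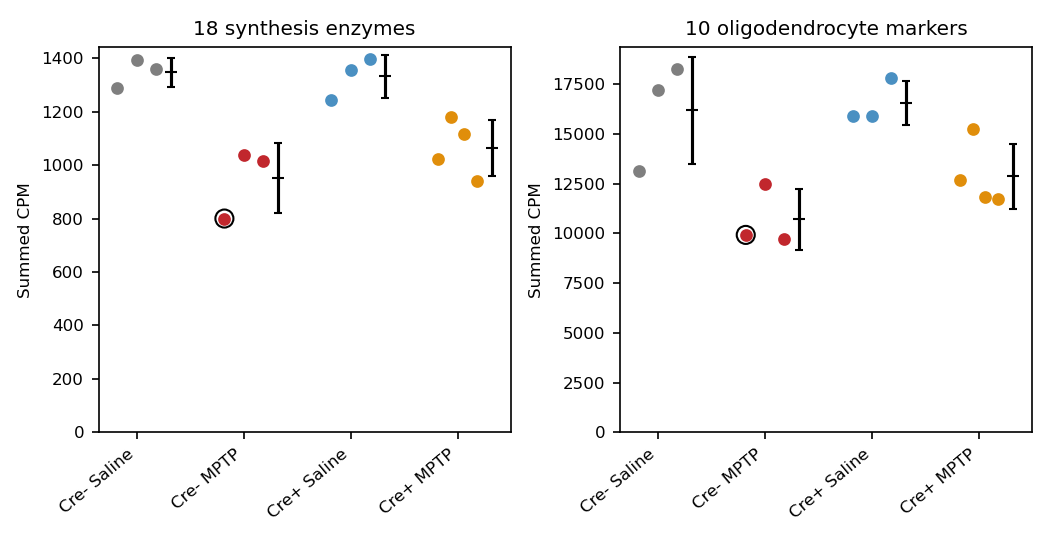
Summed CPM of the 18 synthesis enzymes (left) and of 10 oligodendrocyte markers (right), with 1 point per library, the group mean and SD beside the points, and a ring around Cre- MPTP replicate 1. Every MPTP library lies below every Saline library on the left, whereas on the right Cre- Saline replicate 1, at 13159 CPM, overlaps the Cre+ MPTP libraries.

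Among the regulators, Srebf2, which encodes SREBP-2, the main activator of cholesterol synthesis genes, stood at 202, 231 and 280 CPM in Cre- Saline and at 435, 176 and 185 CPM in Cre- MPTP. In Cre+ mice it was at 209, 255 and 219 CPM with saline and 215, 192, 231 and 192 CPM with MPTP. The groups overlapped in both genotypes, and replicate 1 alone placed the Cre- MPTP mean above that of saline. Without it the difference came to -0.39 on the log2 scale (SE 0.13, adjusted p = 0.0844 by edgeR). Srebf1 and Scap showed the same single high library, at 309 CPM against 85.5 and 101 for Srebf1, and 267 CPM against 85.9 and 96.8 for Scap.

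Insig1, itself an SREBP target, stood at 168, 195 and 196 CPM in Cre- Saline and 248, 141 and 142 CPM in Cre- MPTP. The Cre+ libraries read 165, 182 and 192 CPM with saline and 140, 148, 167 and 130 CPM with MPTP. With all libraries the difference in Cre- mice was -0.08 on the log2 scale (SE 0.20). Without replicate 1 it was -0.40 (SE 0.11, adjusted p = 0.0362 by edgeR), and it was then the 1 regulator of 5 that fell, with all 5 below 0. In Cre+ mice all 5 were below 0 too, with a median of -0.05.

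Of the transport genes, Stard4, a soluble sterol carrier that SREBP-2 also drives, had a log2 fold change of -0.49 (SE 0.24) in Cre- and -0.29 (SE 0.22) in Cre+ mice, with MPTP below Saline in every library of both genotypes and neither value past the test, and -0.20 (SE 0.09) in Cre- mice without Cre- MPTP replicate 1. Lrp1, a large endocytic receptor for apolipoprotein E, ranged from 412 to 815 CPM within the Cre- Saline libraries, a spread wider than any difference between the group means.

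Of the 3 export genes, Abca1 and Abcg1 had higher means after MPTP in both genotypes. Abca1 (chr4:53030787-53159895), which passes cholesterol to lipid-poor apolipoproteins, read 33.1, 50.7 and 47.4 CPM in Cre- Saline and 35.8, 74.7 and 81.3 CPM in Cre- MPTP. Cre+ libraries read 56.7, 52.8 and 48.7 CPM with saline and 57.7, 64.1, 63.8 and 63.9 CPM with MPTP. The Cre- groups overlapped through replicate 1, and the Cre+ groups did not overlap. Abca1 had a log2 fold change of 0.55 (SE 0.25, adjusted p = 0.333 by edgeR) in Cre- mice and 0.24 (SE 0.24) in Cre+ mice. Without replicate 1 it rose in Cre- mice, by 0.84 (SE 0.14, adjusted p = 0.00184 by edgeR), where 5.14% of all genes rose.

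Apoe is where replicate 1 counted most. Its level was 2943, 2510 and 2659 CPM in Cre- Saline and 11528, 1908 and 2080 CPM in Cre- MPTP, so 1 library stood above all others while its 2 group members were the lowest of the 13. The Cre+ libraries read 2369, 2466 and 2612 CPM with saline and 2255, 2237, 2342 and 2351 CPM with MPTP, which did not overlap. The log2 fold change in Cre- mice was 0.94 (SE 0.52) with all libraries and -0.44 (SE 0.09, adjusted p = 0.0079 by edgeR) without replicate 1. Abcg1, which loads cholesterol onto lipoprotein particles, had a log2 fold change of 0.22 (SE 0.12) in Cre- mice, with all 3 MPTP libraries above the Saline libraries, and 0.08 (SE 0.11) in Cre+ mice. Without replicate 1 Abcg1 was at 0.21 (SE 0.10) in Cre- mice.

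Cyp46a1, the neuronal 24-hydroxylase, was at 118, 87.2 and 95.6 CPM in Cre- Saline, 251, 82 and 80.3 CPM in Cre- MPTP, 79.4, 93.9 and 87.6 CPM in Cre+ Saline and 89.3, 84.1, 97.9 and 86.4 CPM in Cre+ MPTP. In Cre- MPTP, replicates 2 and 3 lay below the Saline libraries and replicate 1 far above them, and the Cre+ groups overlapped. Soat1, which stores cholesterol as esters, had log2 fold changes of -0.13 (SE 0.17) in Cre- and 0.08 (SE 0.16) in Cre+ mice, and 0.06 (SE 0.10) in Cre- mice without replicate 1.

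**Figure D4:**
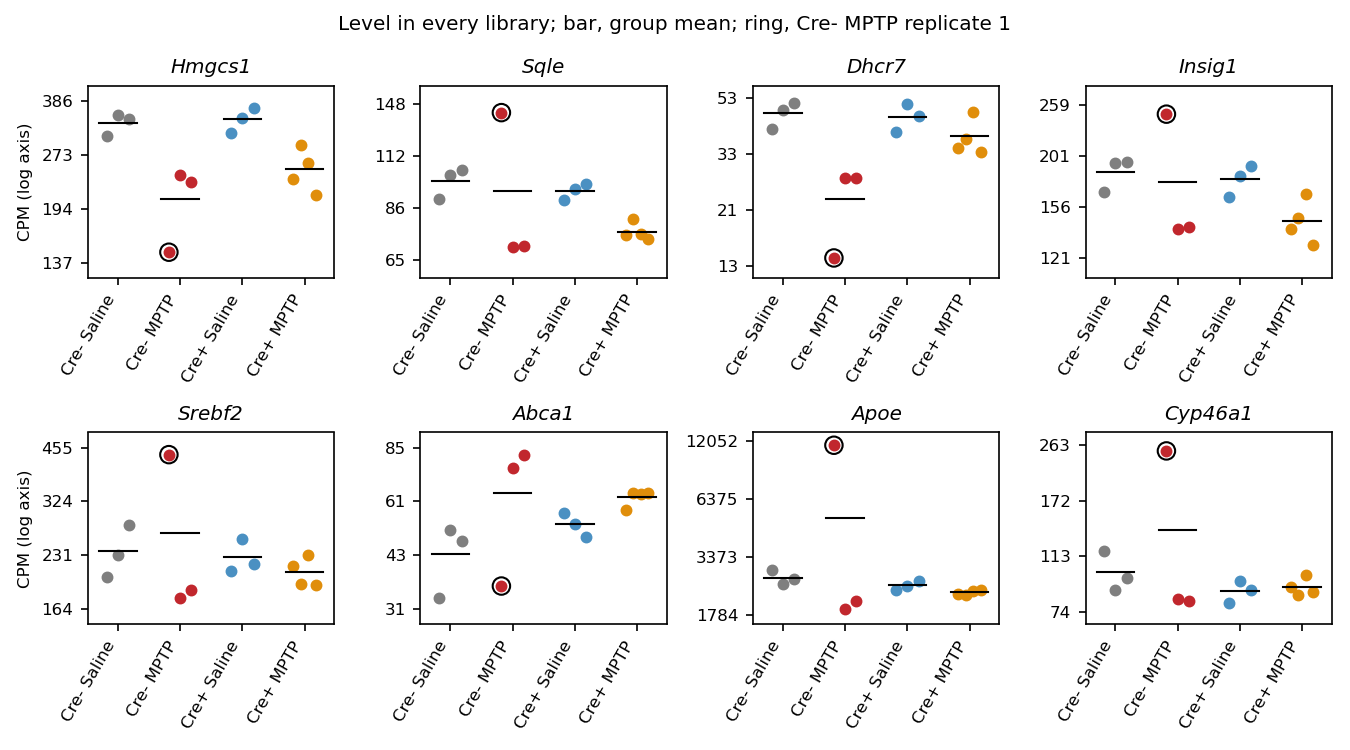
CPM on a log axis in each library (points) with the group mean (bar) for 8 genes of synthesis, regulation, export and hydroxylation; the ring marks Cre- MPTP replicate 1. Hmgcs1 and Dhcr7 were lower in all Cre- MPTP libraries than with saline, and for Sqle, Insig1, Srebf2, Apoe and Cyp46a1 the ringed library lies above all others.

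The genotypes were then compared directly. With saline, none of the 30 genes differed between Cre+ and Cre- mice by edgeR at an adjusted p under 0.05, nor at an unadjusted p under 0.05, where 0.909% of all genes did. The smallest unadjusted p was 0.306, for Abca1, by edgeR, and none was called under the 21 alternatives. Their log2 differences ran from -0.27 for Mvd to 0.27 for Abca1. With MPTP, none passed either, against 1.54% of all genes, and 5 had an unadjusted p under 0.05 by edgeR, against 19%. Dhcr7 was higher in Cre+ mice by 0.74 (SE 0.22, adjusted p = 0.141 by edgeR), and all 4 Cre+ MPTP libraries lay above the 3 Cre- MPTP libraries, as for 6.25% of all genes. DESeq2 and voom each called Dhcr7 in this comparison. The other 4 were lower in Cre+ mice, namely Apoe at -1.17 (SE 0.48, adjusted p = 0.224 by edgeR), Mvk at -0.71 (SE 0.31), Srebf1 at -0.74 (SE 0.34) and Scap at -0.67 (SE 0.31), and Cyp46a1 came next at -0.62 (SE 0.32).

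All 5 of these lower values changed sign without Cre- MPTP replicate 1. Apoe was then at 0.20 (SE 0.08), Mvk at 0.01 (SE 0.11), Srebf1 at 0.08 (SE 0.10), Scap at 0.03 (SE 0.11) and Cyp46a1 at 0.14. Dhcr7 kept its direction, at 0.49 (SE 0.14, adjusted p = 0.0852 by edgeR), and none of the 30 passed, against 3.18% of all genes. The median over the 18 synthesis enzymes was 0.26 with all libraries and 0.04 without replicate 1, against 0.03 and 0.01 over all genes. Without Cre- MPTP replicate 2 instead, 2 of the 30, Srebf1 and Apoe, passed as lower in Cre+ mice, where 9.51% of all genes passed in either direction.

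Whether the MPTP response itself differed by genotype was tested with the interaction term. None of the 30 genes passed by edgeR, against 0.0103% of all genes, and none did under any alternative run. At an unadjusted p under 0.05 there was 1 with all libraries, against 5.76% of all genes. It was Dhcr7, at 0.78 (SE 0.31, adjusted p = 0.773 by edgeR). The next by p were Fdps at 0.48 (SE 0.31), Msmo1 at 0.47 (SE 0.31), Apoe at -1.05 (SE 0.70), Scap at -0.60 (SE 0.45) and Srebf1 at -0.62 (SE 0.50). Without replicate 1 there were 5, against 12.4% of all genes: Mvd at 0.53 (SE 0.17), Dhcr7 at 0.53 (SE 0.19), Apoe at 0.33 (SE 0.12), Cyp46a1 at 0.34 (SE 0.16) and Abca1 at -0.60 (SE 0.18), with a smallest adjusted p of 0.178, for Abca1, by edgeR, while 1.03% of all genes passed. Without replicate 1, Cre- MPTP held 2 mice and the other groups 3 or 4. The SEs of 0.11 to 0.27 there leave a moderate difference between the genotypes undetectable at this size. The lower synthesis enzymes in both genotypes are therefore not shown to be equal.

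Genes beside the cholesterol pathway were counted from lists made with it. Of 12 fatty acid synthesis genes that SREBPs drive, 9 were lower in Cre- mice after MPTP (median -0.33) and 10 in Cre+ mice (median -0.15), and none passed by edgeR in either. Over all genes 47.6% and 49.1% were lower. Without replicate 1, 5 of the 12 fell in Cre- mice, among them Fads2 at -0.61 (SE 0.13) and Scd2 at -0.41 (SE 0.11), both fatty acid desaturases, while Acaca, the acetyl-CoA carboxylase, rose by 0.95 (SE 0.17). Over all genes 4.25% fell and 5.14% rose there. Of 8 genes of the prenyl branch, which uses farnesyl diphosphate for other products, 4 were lower and 4 higher in each genotype and none passed with all libraries.

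Among the liver X receptor and lipoprotein genes 3 of 18 passed in Cre- mice, and of the oxysterol enzymes 2 of 5, against 3.18% of all genes. None passed in Cre+ mice, where no gene of the table did. Ch25h, which makes 25-hydroxycholesterol and is known as an interferon-induced gene, read 0.159, 0.937 and 1.57 CPM in Cre- Saline and 31.1, 15.8 and 17.9 CPM in Cre- MPTP. In Cre+ mice it read 1.85, 0.976 and 1.87 CPM with saline and 1.44, 5.37, 1.95 and 0.42 CPM with MPTP, so only the Cre- MPTP libraries were high. It rose in Cre- mice by 4.58 (SE 0.84, adjusted p = 0.0089 by edgeR) and was lower in Cre+ than Cre- MPTP mice at -3.25 (SE 0.70, adjusted p = 0.0406 by edgeR). The interaction did not pass, at -4.06 (SE 1.06, adjusted p = 0.273 by edgeR). When Cre- MPTP replicate 1 was left out, the rise in Cre- mice was 4.23 (SE 0.78). Cyp7b1, which breaks oxysterols down, rose in Cre- mice by 1.31 (SE 0.31, adjusted p = 0.0394 by edgeR), from 8.47 to 11.2 CPM with saline to 15.7 to 38.9 CPM, and by 0.77 (SE 0.17, adjusted p = 0.0145 by edgeR) without replicate 1.

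Of the 18 liver X receptor and lipoprotein genes, Apod, a lipocalin that binds small lipids, rose in Cre- mice by 1.96 (SE 0.24, adjusted p = 0.00132 by edgeR). It stood at 298 to 321 CPM in Cre- Saline and 829 to 1679 in Cre- MPTP, and in Cre+ mice at 254 to 330 CPM with saline and 360 to 553 with MPTP. It was lower in Cre+ than in Cre- MPTP mice, at -1.44 (SE 0.22, adjusted p = 0.0113 by edgeR). The interaction was -1.42 (SE 0.32, adjusted p = 0.195 by edgeR) with all libraries and passed without Cre- MPTP replicate 1, at -1.63 (SE 0.25, adjusted p = 0.015 by edgeR). The phospholipid transfer protein Pltp fell in Cre- mice, by 1.54 on the log2 scale, and the cholesterol acyltransferase Lcat by 0.83. Without replicate 1 they were at -1.83 (SE 0.17) and -0.64 (SE 0.12).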

How the data were processed

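Total RNA of whole midbrain was sequenced as paired reads from stranded total RNA libraries. Per the study's methods and the submitters' processing notes, the authors trimmed reads with Trimmomatic 0.36, aligned them to GRCm38 with STAR 2.5.2b and deposited raw counts of unique hits per gene from featureCounts (Subread 1.5.2); whether strand was used is not given in the sources used here. From these counts, genes that reached 10 counts in 3 or more libraries were kept and fitted with edgeR 4.0.16 (R 4.3.3) by TMM scaling and the quasi-likelihood test, with 1 term per group over all 13 libraries, an SE of |log2 fold change|/√F, and Benjamini-Hochberg adjustment over all 19360 genes. CPM use TMM-scaled totals. Each mouse gave 1 library, so p-values measure the spread between mice. Alternatives were DESeq2 1.42.0, limma 3.58.1 voom with sample weights, other scalings and filters, a replicate block, the 2 groups compared alone, and each library left out. The edgeR, DESeq2 and voom fits were also run on simulated data, in which no library stood apart from its group. Those runs therefore do not cover a library like Cre- MPTP replicate 1. In each comparison the called members were named, or where under 6 passed, those with the smallest p up to 6. Library values were given for the members called most often and for 7 genes set by role. The full set of results without Cre- MPTP replicate 1, and the contrast over both genotypes, were added after values were seen. The members and lists were chosen with earlier results of these data known.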

Additional observations from a re-analysis of the deposited data

Results flagged for a closer look

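In the group of 4 Cre+ MPTP libraries, 3 of the 30 genes had 1 library whose gap to the nearest other exceeded Dixon's limit for a lone sample, which chance alone passes in about 1 of 20 groups. Mvk was at 21.7 CPM in Cre+ MPTP replicate 4 and at 25.7 to 26.1 CPM in the other 3 libraries. Nsdhl was at 26.3 CPM in replicate 2 and at 21.7 to 22.4 CPM in the others. Abca1 was at 57.7 CPM in replicate 1 and at 63.8 to 64.1 CPM in the others.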

How the results depend on the processing

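The number of cholesterol genes called in Cre- mice, 1 by edgeR on all libraries, was 6 with DESeq2 (5.87% of all genes were called there). It was 17 with voom (13.6%) and 0 with the compared groups alone (0.6%). With Cre- MPTP replicate 1 and Cre+ MPTP replicate 4 both left out it was 13 (10%). With single libraries left out it was 0 to 13 (1.61% to 9.38% of all genes), both highest without Cre- MPTP replicate 1. In Cre+ mice it was 0, and 5 with voom (1.52%). Between genotypes under MPTP it was 0, 1 with DESeq2 (4.31%), 1 with voom (6.32%) and 0 to 2 with single libraries left out (0.212% to 9.51%). Over both genotypes it was 2, 5 with DESeq2 (5.1%), 19 with voom (14.3%) and 1 without a filter on counts (1.42%). It was 14 with both libraries left out (9.22%), and 0 to 16 with single libraries left out (1.59% to 9.14%), both highest without Cre- MPTP replicate 1. With saline and for the interaction it was 0 under every setting run. With a replicate block the counts were 2 in Cre- mice (2.21%) and 1 over both genotypes (1.78%). Same-numbered libraries showed little sign of pairing, since of 18 such pairs 3 had a correlation of deviations over 0.1 (range -0.18 to 0.18). The check cannot exclude a shared batch, because the deviations in Cre- MPTP are dominated by replicate 1.

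Between genotypes under MPTP, signs turned with voom for Apoe (0.16), Mvk (0.0127), Srebf1 (0.0698), Scap (0.0436) and Cyp46a1 (0.14), and with both libraries left out (0.19, 0.0745, 0.12, 0.0705 and 0.15 in that order). With single libraries left out they ran from -1.54 to 0.20 for Apoe, -0.97 to 0.0135 for Mvk, -1.03 to 0.0768 for Srebf1, -0.93 to 0.0319 for Scap and -0.89 to 0.14 for Cyp46a1. For the interaction they turned with voom for Apoe (0.20), Scap (0.0743) and Srebf1 (0.16), and with both libraries left out (0.31, 0.14 and 0.24). With single libraries left out these ran from -1.42 to 0.33, -0.86 to 0.11 and -0.91 to 0.20. The highest of each range is the value without Cre- MPTP replicate 1. The cause was not tested. With 3 or 4 mice a group and 1 library far from its group, small differences are below what these data resolve.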
